A study of Mus musculus with 8 samples.

Results

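The microRNA genes of the Dlk1-Dio3 interval, an imprinted domain of mouse chromosome 12, were followed in cultured hippocampal neurons exposed to bicuculline. The genes were taken from a list of 44 symbols. A gene was kept where the platform annotation gave at least 1 array row to that symbol alone, which left 36 of the 44 among 19938 genes tested. Of the 8 others, Mir433 and Mir410 stood on rows shared with another gene, and 6 had no row under their symbol (Mir299, Mir496, Mir758, Mir453, Mir770 and Mir493). Rows named Mir299a and Mir496a may be those of Mir299 and Mir496, but they were not merged with the listed symbols. Where a gene had several rows the one with the highest mean signal was to be used, but 0 of the 36 had more than 1 row. A mean signal below 4.5 marked a gene as dim, which applied to 19 of the 36. Rows were thus to be selected on the mean signal over the 8 arrays, and the dim mark was chosen by the same value, so levels are given without a test. The symbols themselves were proposed with the changes over time in view.

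Neurons from the hippocampus of ICR mouse embryos at E17.5 were grown for 10 days in culture and treated with 50 µM bicuculline for 0, 30, 180 or 300 min. Bicuculline blocks GABA-A receptors and so removes inhibition from the network. Total RNA from RNeasy columns was read on 8 Affymetrix Mouse Gene ST 1.0 arrays, 2 for each of the 4 times. The replicates were named biological replicates, but whether they came from separate dissections was not given, so p-values measure the spread between arrays. The 0 min arrays were the reference, and no array of untreated cells stood beside the later times. Strain, culture age and genotype were the same in all groups, and no transgene or deletion was named.

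In this domain Dlk1, Rtl1 and Dio3 are expressed from the paternal chromosome. The long noncoding RNAs Meg3, Rian and Mirg are expressed from the maternal chromosome, and the microRNA hairpins are cut out of these and neighbouring maternal transcripts. In rat neurons, transcription of the large cluster from Mir379 to Mir410 has been reported to depend on Mef2 during activity. Its product miR-134 has been reported there to act on Limk1 in dendritic spines and on Pum2 in dendrite growth. All 36 genes measured here lay between Dlk1 and Dio3. Of these, 10 lay upstream of Mir379 (Mir673 to Mir370) and 26 in the cluster from Mir379 to Mir369. The array rows carry probes for the hairpin region, so they cannot tell a mature microRNA from its precursor or from the long primary transcript. RNeasy columns recover small RNAs poorly.

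The mature microRNAs of the genes that the results turn on are printed from RefSeq (GRCm38.p6), written 5′ to 3′. Capitals mark the seed, bases 2 to 8, which pairs with target messages. All 36 genes were matched by symbol and had 68 mature arms listed there. Mir376c, Mir487b, Mir539 and Mir485 had only 1 arm listed, so any other arm of these hairpins was not compared. The first 9 lines give 1 arm each for the genes with a change over the 4 times by limma's F test, in chromosomal order, and the tenth gives miR-134.
mmu-miR-495-3p, chr12:109718795-109718816, + strand: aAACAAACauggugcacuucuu
mmu-miR-300-3p, chr12:109724363-109724384, + strand: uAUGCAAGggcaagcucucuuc
mmu-miR-381-3p, chr12:109726870-109726891, + strand: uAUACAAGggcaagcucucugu
mmu-miR-487b-5p, chr12:109727347-109727367, + strand: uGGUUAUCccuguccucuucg
mmu-miR-539-5p, chr12:109728136-109728157, + strand: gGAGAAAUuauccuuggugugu
mmu-miR-382-3p, chr12:109733819-109733840, + strand: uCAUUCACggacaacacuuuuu
mmu-miR-154-3p, chr12:109738474-109738495, + strand: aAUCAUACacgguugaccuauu
mmu-miR-377-3p, chr12:109740553-109740574, + strand: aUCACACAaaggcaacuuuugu
mmu-miR-409-3p, chr12:109743204-109743225, + strand: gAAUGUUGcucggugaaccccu
mmu-miR-134-5p, chr12:109734145-109734166, + strand: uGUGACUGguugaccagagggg
The 68 arms carried 66 different seeds, so within this set nearly every arm had a seed of its own. Arms not listed could add shared seeds. The seeds of the 10 arms above all differed from each other. miR-300-3p and miR-381-3p differed at 3 of their 22 bases, within the seed as well as near the 3′ end. Only 2 seeds were shared among the 68 arms, each by 1 pair, and those pairs are printed to show how alike they are.
mmu-miR-379-3p, chr12:109709102-109709123, + strand: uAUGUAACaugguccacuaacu
mmu-miR-411-3p, chr12:109710225-109710246, + strand: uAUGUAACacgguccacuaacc
mmu-miR-376b-5p, chr12:109723471-109723492, + strand: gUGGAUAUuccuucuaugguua
mmu-miR-376c-5p, chr12:109722733-109722754, + strand: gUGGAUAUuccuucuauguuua
The first pair differed at 2 of 22 bases and the second at 1 of 22. For such near copies a probe may read more than 1 gene, so the rows of Mir376b and Mir376c, and of Mir379 and Mir411, are less certain. The same may hold for Mir300 and Mir381, whose printed arms differed at 3 of 22 bases. Beyond the 36 measured genes, 12 of the 68 arms shared their seed with some other mouse microRNA. For miR-494-5p this was miR-410-5p, of the listed but unmeasured Mir410, and for miR-495-3p these were miR-1192 and miR-12200-5p.

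The stimulus was visible in the neurons' immediate early genes. At 30 min against 0 min, Npas4, a transcription factor induced by activity, rose by 3.88 on the log2 scale, Arc, a postsynaptic protein, by 2.38 and the transcription factor Fos by 2.29. Bdnf, a secreted neurotrophin, rose by 1.14 at 180 min against 0 min. The defining genes of neurons had a median log2 signal of 9.17 at 0 min over the 10 measured. The astrocyte markers Gfap, Aqp4, Aldh1l1 and Slc1a3 were also measured, with a median of 6.13 at 0 min, and each was above the olfactory receptor genes' 95th percentile of 4.46 on all 8 arrays. The summed linear signal of those 4 markers was 313 and 350 in the 30 min arrays, against 302 and 375 in the 0 min arrays, and overlapped between these times. It was 307 and 373 at 180 min and 266 and 342 at 300 min. None of the markers of neurons, astrocytes, oligodendrocytes or microglia passed limma's test in the comparisons made. In bulk RNA, fewer cells of a type and less RNA per cell cannot be told apart. The deposited log2 values had medians of 4.84 to 4.88 per array, and replicate arrays correlated at r = 0.985 to 0.99 over all rows.

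Many of the hairpin rows lay near the arrays' background. The 1027 olfactory receptor genes, which work mainly in the nose, had a median log2 signal of 3.35 and a 95th percentile of 4.46. Of the 36 microRNA genes, 15 lay above that percentile on all 8 arrays, 10 lay below it on all 8, and 11 lay on both sides. The highest means over the 8 arrays were those of Mir341 at 8.90, Mir134 at 7.12 and Mir667 at 6.78. The lowest were those of Mir376c at 2.06, Mir379 at 2.50 and Mir376a at 2.74. At the threshold of 4.5, Mir377 lay just inside with a mean of 4.51 and Mir323 just outside with 4.43. These signals do not rank RNA amounts, because each row has its own probes. Signal increased with the GC content of the RefSeq hairpin, with a Spearman correlation of 0.69 across the 36 genes. Across 222 of the 264 other microRNA genes that had a hairpin in the table it was 0.82. These points are genes, which share the same 8 arrays and are not independent replicates.

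Bicuculline for 30 min went with lower signal at most of the hairpins. The mean at 30 min was below that at 0 min in 32 of 36 genes, with a median log2 change of −0.22, against 0.00 over all genes tested and 0.03 over the other 264 microRNA genes. Those 264 include 4 of the interval whose symbols were not on the list (Mir299a, Mir496a, Mir666 and Mir679). Of these, Mir299a and Mir496a may be the listed Mir299 and Mir496 under other names. In the cluster from Mir379 to Mir369 the median was −0.35 and 25 of 26 genes were lower, while upstream of it the median was −0.15 and 7 of 10 were lower. Both 30 min arrays lay below both 0 min arrays in 26 of the 36, beside 18.3% of all genes. At an unadjusted p under 0.05 by limma, 14 of 36 were lower (background 2.34%) and 2 were higher (background 2.76%). After Benjamini-Hochberg adjustment over all 19938 genes, 1 of 36 fell (background 0.015%) and 0 rose (background 0.0802%). These genes were proposed with this pattern of the same arrays already known, so the counts describe the genes and are not a test of the group.

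**Figure D1:**
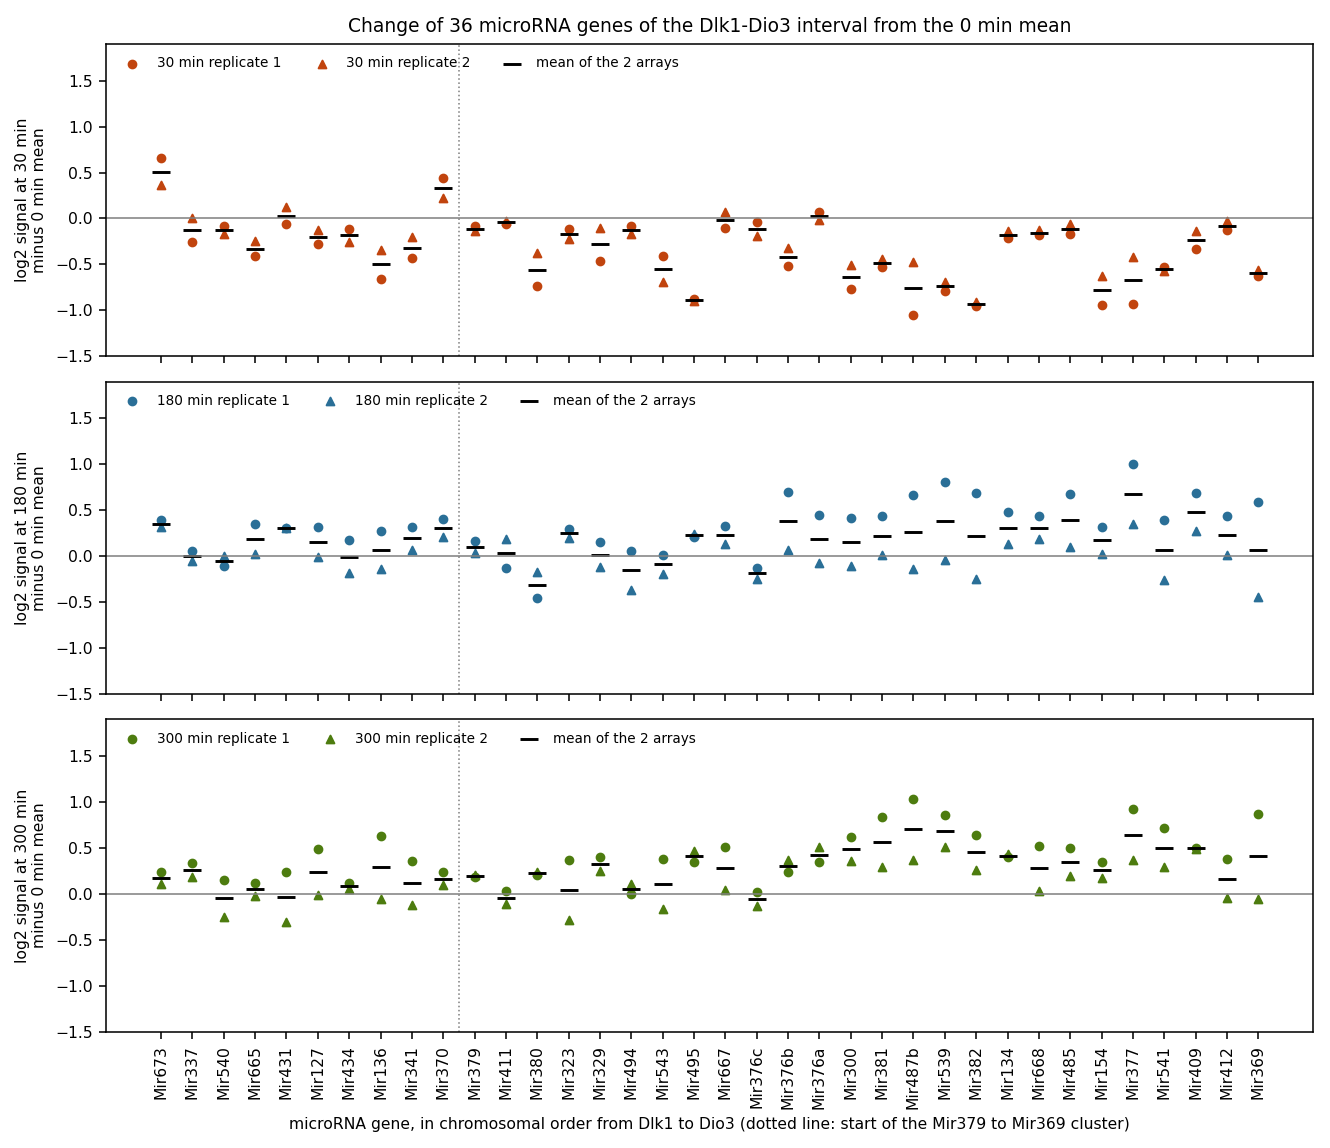
Log2 signal of each array minus the gene's 0 min mean (vertical axis, 1 panel each for 30, 180 and 300 min) for the 36 microRNA genes in chromosomal order (horizontal axis), with the dotted line at the start of the Mir379 to Mir369 cluster. At 30 min 25 of the 26 cluster genes had a mean below that at 0 min, and at 300 min 32 of all 36 had a mean above it.

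Mir495, a gene of the cluster, gave the clearest change. Its log2 signal was 3.48 and 3.61 at 0 min, 2.67 and 2.65 at 30 min, 3.76 and 3.79 at 180 min, and 3.89 and 4.01 at 300 min. The 2 arrays at 30 min lay below the other 6, and the gap between replicates was small at each time. At 30 min it averaged 2.66 ± 0.02, against 3.54 ± 0.10 at 0 min (SD, n = 2 each). Mir495 thus fell by 0.89 on the log2 scale, to a level 1.85-fold below that at 0 min (SE 0.12, limma adjusted p = 0.00389). All 8 of its values lay below the olfactory 95th percentile of 4.46, so it was read near background throughout. Leaving out 0 min replicate 2, 30 min replicate 1 or 30 min replicate 2 ended the call, with adjusted p-values of 0.126, 0.0776 and 0.0699.

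Several neighbours had changes of similar size at 30 min without passing the adjusted test. Mir382 had the largest difference, −0.93 (SE 0.25, limma adjusted p = 0.586), with 4.54 and 4.59 at 30 min, against 5.21 and 5.79 at 0 min. Its groups did not overlap, but its 0 min arrays were 0.58 apart. Mir154 had a difference of −0.78 (adjusted p = 0.18 by limma), with 3.23 and 3.55 at 30 min, against 3.98 and 4.35 at 0 min. For Mir487b the difference was −0.76 and for Mir539 −0.74. Mir377 followed with −0.67 and Mir300 with −0.64, and in each of these 4 genes both 30 min arrays were below both 0 min arrays. Over these 6 genes the adjusted p lay between 0.18 and 0.849.

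A few genes had higher values at 30 min. Mir673, the most upstream of the 36, had 6.26 and 5.98 at 30 min, against 5.74 and 5.48 at 0 min, a difference of 0.51 (limma adjusted p = 0.631). Mir370, which lies by Rian, had 5.23 and 5.02 at 30 min, against 4.94 and 4.63 at 0 min, a difference of 0.33. In both genes the groups did not overlap. Such a gap upward was found in 2 of the 36 genes, beside 19.2% of all genes. Mir431 and Mir376a each differed by 0.03, and their groups overlapped.

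Most hairpins were read higher at 180 min than at 30 min. At 180 min against 30 min the median log2 change of the 36 genes was 0.46, against −0.01 over all genes and 0.07 over the other microRNA genes, and 32 of 36 were higher. Both 180 min arrays lay above both 30 min arrays in 25 of 36 (background 18.2%). At an unadjusted p under 0.05 by limma 21 of 36 were higher (background 4.82%), and 4 of 36 rose after adjustment (background 0.331%). None of the 36 was lower at either threshold (background 0.171% after adjustment and 5.64% before it). The comparison shares the 30 min arrays with that of 30 min against 0 min, so a low value there enters both. Without 180 min replicate 1 the median of 0.46 was 0.30.

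The 4 genes that rose between 30 and 180 min all belonged to the cluster. Mir377 rose by 1.35 (SE 0.22, limma adjusted p = 0.0137), with 5.35 and 4.69 at 180 min, against 3.42 and 3.92 at 30 min. Mir539 rose by 1.12 (adjusted p = 0.0328 by limma), with 5.77 and 4.92 at 180 min, against 4.17 and 4.27 at 30 min. Mir495 rose by 1.11 (SE 0.12, adjusted p = 0.000358 by limma), to a level 2.16-fold above that at 30 min. In each of these genes both 180 min arrays lay above both 30 min arrays. Mir154 rose by 0.95 (limma adjusted p = 0.0145), with 4.49 and 4.20 at 180 min, against 3.23 and 3.55 at 30 min. In all 4 genes both 30 min arrays lay below the olfactory 95th percentile of 4.46, and Mir495 and Mir154 were dim. The calls of Mir377, Mir539 and Mir154 were lost without 180 min replicate 1, with adjusted p-values of 0.11, 0.163 and 0.127, and also without 30 min replicate 1, with 0.247, 0.316 and 0.301. Mir539 lost its call without 30 min replicate 2 as well (adjusted p = 0.169). Counts over the 36 genes were 1 without 30 min replicate 1, 1 without 180 min replicate 1 and 10 without 180 min replicate 2.

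Other genes of the same stretch lay close to the threshold. Mir382 differed by 1.15 between 180 and 30 min (limma adjusted p = 0.0664) and Mir409 by 0.71 (limma adjusted p = 0.0515). Mir487b differed by 1.02, Mir376b by 0.80, Mir300 by 0.79 and Mir381 by 0.71, with no call. Mir376b belongs to the miR-376 family, whose transcripts are edited from adenosine to inosine in brain. Its relatives Mir376a and Mir376c differed by 0.15 and −0.07, but both had signals near the bottom of the scale.

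**Figure D2:**
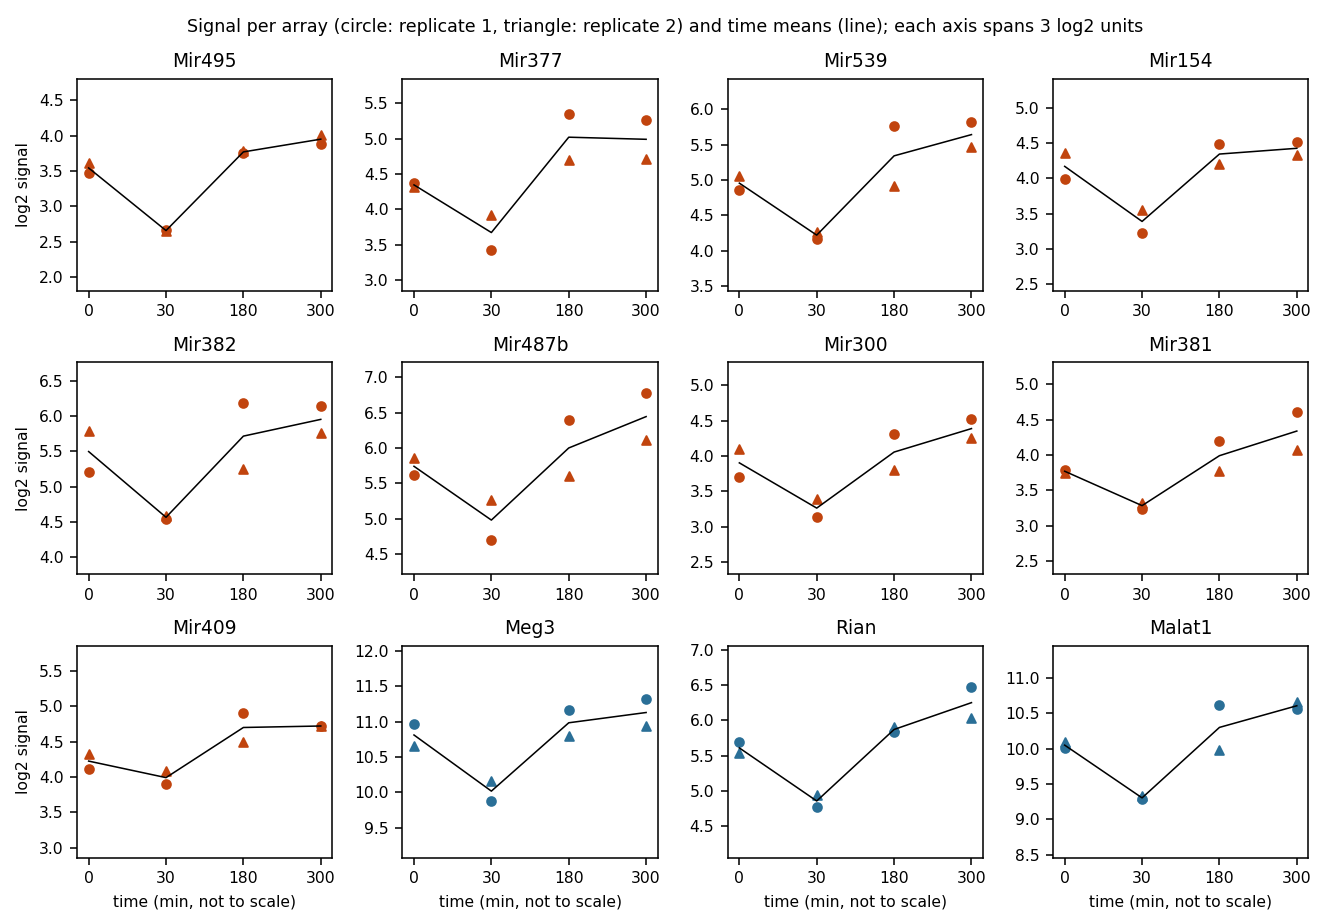
Log2 signal (vertical axis) on each of the 8 arrays against time in bicuculline (horizontal axis, min, not to scale) for genes of the interval, circles for replicate 1, triangles for replicate 2 and lines for time means. The Mir495 arrays at 30 min, at 2.67 and 2.65, lie below all its others.

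Against 0 min, the later times gave small upward differences and no call. At 180 min the median log2 change was 0.19 (all genes 0.00, other microRNA genes 0.11) and 30 of 36 genes were higher. At 300 min it was 0.27 (all genes 0.00, other microRNA genes 0.06) and 32 of 36 were higher. After adjustment 0 of 36 rose (background 0.211% at 180 min and 0.226% at 300 min) and 0 fell (background 0.12% and 0.0602%). At an unadjusted p under 0.05 by limma 7 of 36 were higher at 180 min (background 5.71%) and 11 of 36 at 300 min (background 4.25%), all 11 of them in the cluster. At that threshold 0 of 36 were lower at either time (background 7.07% at 180 min and 4.71% at 300 min). Both later arrays lay above both 0 min arrays in 12 of 36 genes at 180 min (33.3%, background 21.1%). At 300 min this held for 17 of 36 (47.2%, background 18.8%). Among the other 264 microRNA genes it held for 88 (33.3%) at 180 min, the same share, and for 66 (25%) at 300 min. Both later arrays lay below both 0 min arrays in 2 of 36 at 180 min (background 22.6%) and in 0 of 36 at 300 min (background 19.6%). Without 300 min replicate 1 the median of 0.27 at 300 min was 0.14. At 300 min against 180 min the median was 0.09, and its direction was not settled. Leaving out 180 min replicate 2 turned it to −0.067, and leaving out 300 min replicate 1 turned it to −0.012. It became 0.25 when 180 min replicate 1 was dropped, and 0.19 when 300 min replicate 2 was dropped. In that comparison 0 of 36 passed in either direction (background 0% in both). At an unadjusted p under 0.05 by limma, 2 were higher (background 2.33%) and 1 was lower (background 3.4%).

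Single genes show the range at the later times. Mir487b had 6.77 and 6.11 at 300 min, against 5.62 and 5.86 at 0 min, a difference of 0.70, and Mir539 differed by 0.69. Mir377 differed by 0.68 at 180 min and by 0.65 at 300 min, in both cases without overlap of the arrays. Mir134, the member with reported targets in dendrites, had 6.98 and 6.98 at 0 min, 6.77 and 6.84 at 30 min, 7.47 and 7.11 at 180 min, and 7.38 and 7.42 at 300 min. Its arrays at 180 and 300 min lay above the other 4, but no comparison passed the adjusted test. Mir485, whose product has been reported to act on the synaptic vesicle protein Sv2a in rat neurons, had 5.11 and 5.003 at 0 min, 4.89 and 5.003 at 30 min, 5.74 and 5.16 at 180 min, and 5.56 and 5.25 at 300 min. Mir380 had the most negative difference at 180 min against 0 min, −0.31, and Mir376c had −0.19.

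By limma's F test over the 4 times, 9 of 36 genes changed (background 0.813%), and all 9 lay in the cluster. They were Mir495 (adjusted p = 0.000155), Mir154, Mir377, Mir539, Mir300, Mir381, Mir382, Mir409 and Mir487b (adjusted p = 0.0489). Of these, 5 were dim: Mir495, Mir154, Mir300, Mir381 and Mir409. Among the 264 other microRNA genes, 3 changed. The cluster genes that did not pass included Mir541 (adjusted p = 0.0651) and Mir380 (adjusted p = 0.0774). The mean at 30 min was the lowest of the 4 time means in 30 of 36 genes, beside 22.5% of all genes. Both 30 min arrays lay below the other 6 arrays in 21 of 36 (17 of 26 in the cluster and 4 of 10 upstream), beside 4.32% of all genes and 21 of 264 other microRNA genes. The F test's count of 9 became 1 without 30 min replicate 1, 3 without 30 min replicate 2 and 1 without 300 min replicate 1. Between the parts of the interval the difference in change was not tested.

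Of the genes upstream of the cluster, 0 of 10 passed the F test, beside 0.813% of all genes. Mir341, which lies in the Rian region, had 9.07 and 8.74 at 0 min, 8.47 and 8.70 at 30 min, 9.22 and 8.98 at 180 min, and 9.26 and 8.78 at 300 min. Both its 30 min arrays were below the other 6. Mir127, Mir136, Mir431 and Mir434 are transcribed antisense to Rtl1, and in mouse placenta such microRNAs cut the Rtl1 message. Mir136 had 2.49 and 2.80 at 30 min, against 3.01 and 3.28 at 0 min, and Mir127 had 4.60 and 4.75 at 30 min, against 4.85 and 4.89 at 0 min. Mir434 had 2.995 and 2.86 at 30 min, against 3.18 and 3.03 at 0 min, and in these 3 genes the 30 min arrays were below those at 0 min. Mir431 was not lower, with 5.432 and 5.618 at 30 min, against 5.465 and 5.522 at 0 min, and its groups overlapped. Mir665, a further member near them, had 5.47 and 5.63 at 30 min, against 5.90 and 5.86 at 0 min. Mir337 and Mir540 differed by −0.12 and −0.13, and of these only Mir540 had arrays that did not overlap.

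At the upstream end of the cluster the changes at 30 min were uneven. Mir380, Mir543 and Mir329 differed by −0.56, −0.55 and −0.28 at 30 min against 0 min. Mir379, Mir411, Mir323, Mir494 and Mir667 differed by −0.17 to −0.02. Mir667 had 6.55 and 6.73 at 30 min, against 6.62 and 6.69 at 0 min, with overlap. In the middle, Mir381, Mir376b and Mir376c differed by −0.49, −0.41 and −0.12. At the far end, Mir541 differed by −0.55 and Mir369 by −0.59, while Mir409, Mir412 and Mir668 differed by −0.23, −0.08 and −0.15. None of these passed the adjusted test.

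The long noncoding RNAs Meg3 and Rian also had their lowest signals at 30 min, while Mirg was not among the measured genes. Meg3 had 10.96 and 10.66 at 0 min, 9.87 and 10.16 at 30 min, 11.17 and 10.80 at 180 min, and 11.32 and 10.94 at 300 min. At 30 min against 0 min it differed by −0.79 (limma adjusted p = 0.237), and at 180 min against 30 min it rose by 0.97 (limma adjusted p = 0.0218). Rian had 5.69 and 5.53 at 0 min, 4.78 and 4.94 at 30 min, 5.84 and 5.90 at 180 min, and 6.47 and 6.04 at 300 min. It differed by −0.75 at 30 min against 0 min (limma adjusted p = 0.129) and rose by 1.01 at 180 min against 30 min (limma adjusted p = 0.00558). In both genes the 30 min arrays lay below the other 6. The other 9 measured genes of the interval did not pass, so 2 of 11 rose in that comparison (background 0.331%). Among these, the microRNA genes Mir679, which was not on the list, and Mir496a, which may be the listed Mir496, differed by −0.58 and −0.85 at 30 min.

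None of the protein-coding genes of the domain passed the test in any comparison. Dlk1, a Notch-related membrane protein, differed by −0.31 at 30 min against 0 min, Rtl1, derived from a retrotransposon, by −0.07, and Dio3, a deiodinase that inactivates thyroid hormone, by 0.15. Begain and Wdr25, just outside the interval, differed by 0.08 and 0.12. Malat1, a nuclear long noncoding RNA from another chromosome, was looked at after its values were known. It had 9.28 and 9.33 at 30 min, against 10.01 and 10.10 at 0 min (difference −0.75, limma adjusted p = 0.283), and rose by 1.00 at 180 min against 30 min (limma adjusted p = 0.0143). Snhg11, another noncoding RNA chosen in the same way, rose by 1.06 in that comparison, while Tug1 differed by −0.30 with no call. How far a change in nuclear RNA or in RNA recovery had a part in the hairpin values was not tested.

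**Figure D3:**
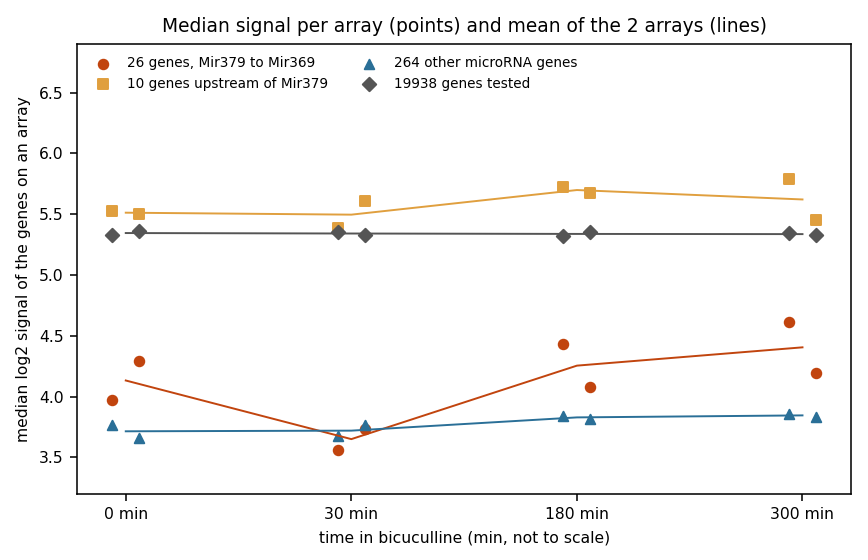
Median log2 signal over the genes of each class (vertical axis) on each array (points) and the mean of the 2 arrays of a time (lines), at 0, 30, 180 and 300 min (horizontal axis). The 26 cluster genes had medians of 3.56 and 3.74 on the 30 min arrays, against 3.97 and 4.29 on the 0 min arrays, while the medians of the other 264 microRNA genes stayed between 3.66 and 3.86.

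The sequence 250 bases before to 50 after the Meg3 start site (RefSeq, GRCm38.p6) is printed because Meg3 and the hairpins downstream of it had their lowest values at the same time. Capitals mark TGACGTCA, the palindromic cAMP response element to which Creb1 and related factors bind.
Meg3 promoter, chr12:109540746-109541045, + strand: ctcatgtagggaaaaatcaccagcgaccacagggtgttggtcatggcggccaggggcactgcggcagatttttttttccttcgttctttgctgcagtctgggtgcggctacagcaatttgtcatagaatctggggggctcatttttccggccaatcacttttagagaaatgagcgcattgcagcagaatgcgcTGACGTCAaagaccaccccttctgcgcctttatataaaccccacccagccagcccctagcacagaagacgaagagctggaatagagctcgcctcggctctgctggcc
The element occurred once, ending 49 bases upstream of the start site. It was searched on both strands, and it contains the shorter TGACG. TGACGTCA was found in 588 of 32851 promoter windows of the same length, or 1.79%, and TGACG in 20.8%. A second annotated Meg3 start, Rian and Mirg had no TGACGTCA in their windows. The MEF2 motif was in none of these windows, and in 3.19% of all windows. A match in letters is a description and was not tied to binding in these cells.

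Of the microRNA genes outside the domain, those linked to activity were read higher at 30 min. Mir212, which shares a transcript with Mir132 and is induced through Creb1 in neurons, had 7.18 and 7.60 at 30 min, against 6.50 and 6.46 at 0 min. It rose by 0.91 (SE 0.15, limma adjusted p = 0.0285), and it was the only one of the other 264 microRNA genes to pass at 30 min. Mir132 differed by 0.35 without a call. Of 16 listed genes for the neuronal microRNAs miR-124, miR-9, miR-128, miR-137, miR-138, miR-219, miR-34a and miR-125b, 12 were measured and 0 passed in any comparison. Their median change at 30 min against 0 min was −0.02. Among the reported regulators and targets of the cluster, Mef2a, Mef2c, Mef2d, Creb1, Limk1, Pum2 and Sv2a, 0 of 7 passed in any comparison.

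Base composition moved with the 30 min values. The hairpins of the 36 genes had a GC content of 29.1% to 62.0%, with a median of 45.3%. Across the 36 genes, the 30 min change and GC content had a Spearman correlation of 0.45, and across the 222 other microRNA genes 0.29. Below 45% GC the median change at 30 min against 0 min was −0.55 over 17 genes of the interval, against −0.03 over 79 other microRNA genes. From 45% to 55% it was −0.17 over 10 genes, against 0.02 over 99. At 55% or more it was −0.12 over 9 genes, against 0.12 over 44. The interval's median was thus below that of the other microRNA genes in each of the 3 bands. The 9 genes past the F test had a median GC content of 40.9%.

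**Figure D4:**
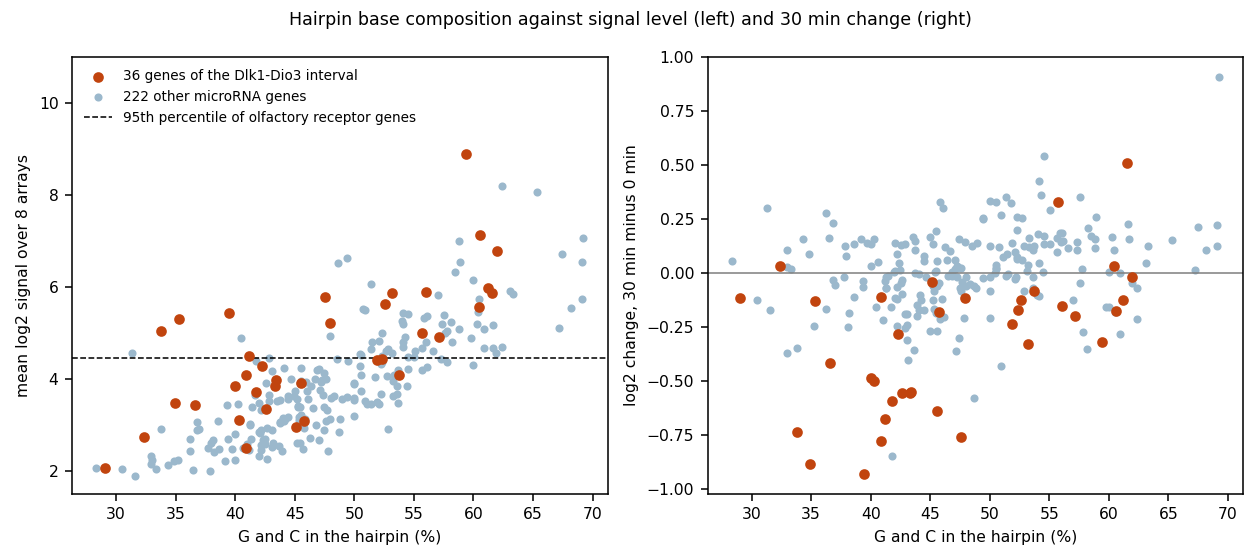
Hairpin GC content in percent (horizontal axes) against mean log2 signal (left) and the log2 change at 30 min against 0 min (right), 1 point per gene, for the 36 genes of the interval and 222 other microRNA genes. Signal increased with GC content in both sets (Spearman 0.69 and 0.82), and below 45% GC the interval's genes had a median 30 min change of −0.55, against −0.03 in the others.

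Replicates differed in a shared direction at the later times. At 180 min replicate 1 lay above replicate 2 in 32 of 36 genes, with a median difference of 0.33, and at 300 min in 29 of 36, with a median difference of 0.29. At 0 min and at 30 min this held for 12 of 36 genes each. At 180 min replicate 1 was the higher in 172 of the 264 other microRNA genes, with a median difference of 0.09, and in 9421 of all 19938 genes. The lean at 180 min was thus also seen in the other microRNA genes. At 300 min replicate 1 was the higher in 145 of those 264, with a median difference of 0.03, and in 9958 of all 19938 genes. The gap at 180 min was widest for Mir369 at 1.03, Mir382 at 0.94 and Mir539 at 0.85, while for Mir495 the arrays differed by 0.03. The median residual SD was 0.21 in the 36 genes, against 0.13 over all genes and 0.15 over the other microRNA genes. Without 180 min replicate 1 the median change of the 36 genes at 180 min against 0 min was 0.012, and without replicate 2 it was 0.34.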

How the data were processed

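The deposited log2 values gave 1 signal per transcript cluster on each of 8 Affymetrix Mouse Gene ST 1.0 arrays. Biotin labelling followed the standard Affymetrix protocol, per the labels. The log base was inferred from the values, which ran from 1.22 to 14.96. For background correction, probe summary, normalization, software and build, the entry is: not given in the sources used here. Of 35399 rows the platform annotation gave 1 symbol to 21789, several to 1621 and none to 11989. Of the single-symbol rows, 21698 were matched to RefSeq (GRCm38.p6) and 0 symbols changed. For 999 genes with several rows the one with the highest mean stood for the gene, leaving 19938 genes and no filter on dim signal.

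The 4 time means were fitted with limma 3.58.1 in R 4.3.3 (lmFit, eBayes, 4 residual degrees of freedom and 10.1 from the prior). Adjustment was by Benjamini-Hochberg over all genes, with a threshold of 0.05, and the script was tested on simulated data. The number of arrays limits the precision. The F test covered the 3 later times against 0 min. Replicate numbers showed no pairing over all genes (6 correlations of deviations, −0.094 to 0.092).

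Genes were named with values where they passed a test, had a mean signal of at least 4.5, were among the 3 largest changes each way against 0 min or the extremes of signal, or have a known role in neurons. Hosts and neighbours, microRNA genes elsewhere, regulators, targets and cell type markers came from written lists. Members and lists were chosen with earlier results of these data known. Malat1, Snhg11 and Tug1 were chosen after their values were seen. Hairpin GC content and motifs were computed from RefSeq sequences. Alternatives were 2 normalizations, a dim filter, every row, row averaging, another variance prior, a replicate block and leaving out each array.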

Additional observations from a re-analysis of the deposited data

How the results depend on the processing

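Of the 4 genes that rose at 180 min against 30 min, 1 (Mir495) was called when every row was tested. Leaving out 1 array gave counts of 1 to 10, with 1 without 30 min replicate 1 or 180 min replicate 1 and 10 without 180 min replicate 2. The count of 1 gene that fell at 30 min against 0 min became 0 when genes had to have a mean signal of at least 4.5, which removes Mir495, and 0 when every row was tested, and leaving out 1 array gave 0 to 1. The count of 9 by the F test became 4 with that minimum signal, under which 17 of the 36 genes were tested, and 1 with every row. Leaving out 1 array gave 1 to 12, with 1 without 30 min replicate 1, 3 without 30 min replicate 2 and 1 without 300 min replicate 1. The minimum signal and leaving out 1 array left fewer genes or arrays, while testing every row raised the number tested to 35399. Why the counts differed was not tested.

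The median change of the 36 genes at 30 min against 0 min stayed between −0.30 and −0.15 under every alternative run. At 180 min against 30 min it was 0.30 to 0.58 when 1 array was left out, and 0.30 without 180 min replicate 1. At 180 min against 0 min it was 0.012 to 0.34. At 300 min against 180 min it was −0.067 to 0.25, and it turned negative without 180 min replicate 2 (−0.067) and without 300 min replicate 1 (−0.012), so its direction was not settled. At 300 min against 0 min it was 0.14 to 0.37.

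The replicate number as a block gave 8 genes by the F test, 4 at 180 min against 30 min and 1 at 30 min against 0 min. Over all genes the numbers showed no pairing of the arrays, and this was not checked for the hairpin genes alone. The rise of Mir495 at 180 min against 30 min stayed past the threshold in all 14 alternatives that tested it, with adjusted p-values up to 0.0441 by limma. At 180 min against 30 min, Mir382, Mir376b, Mir409, Mir487b, Mir300 and Mir541 gained a call without 180 min replicate 2. Mir376b and Mir409 also gained one with the other variance prior, and Mir382 with the minimum signal (adjusted p = 0.0434 by limma). No named gene's call changed direction in any alternative. With 2 arrays a time, many values near background and no untreated arrays at later times, small changes could not be resolved.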
